A study of Mus musculus with 2 samples.

Results

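The genes described here encode the proteins of the 2 ribosomes of a mouse cell, and the question was which of them had a DPPA2 peak at an end of the gene, in embryonic stem cells given adriamycin and in untreated cells. The members were chosen by gene symbol among 21887 RefSeq protein-coding genes, which gave 168 genes, 90 of the cytosolic ribosome (Rpl or Rps with a number, Rpsa and Rplp0 to Rplp2) and 78 of the mitochondrial ribosome (Mrpl and Mrps). Their peaks were selected on the position of the summit, within 1000 bp of either end of the gene, and the contrast of the 2 sets was taken up with their counts known, so these counts are given as a description with no test. The peak lists come from chromatin immunoprecipitation and sequencing (ChIP-seq) with an antibody to DPPA2 in R1/E, a mouse embryonic stem cell line grown on gelatin in serum and leukemia inhibitory factor, and each group was 1 library. The adriamycin library came from cells given adriamycin for 8 h, a treatment labelled as induction of apoptosis, and the other came from untreated control cells labelled wild type. The study's design gives p53 +/+ for both, and both have the same batch entry. Adriamycin (doxorubicin) is a topoisomerase poison that breaks DNA. In the labels of the treated sample the treatment stands in the place of the genotype, so its group was read from the title. Neither library had a replicate, so no difference between the libraries could be tested, and the cell type could not be checked against marker genes because no expression was measured.

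DPPA2 binds DNA as a partner of DPPA4 in pluripotent cells and in the germ line, and in embryonic stem cells it is known to occupy CpG-rich promoters. Cytosolic ribosomal proteins form the small (Rps) and large (Rpl) subunits of the ribosomes that translate nuclear genes' messages, and their genes are among the most highly transcribed in dividing cells. Mitochondrial ribosomal proteins are also made from nuclear genes and are imported into mitochondria, where their ribosomes translate the few messages of the mitochondrial genome, which encode parts of the respiratory chain.

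The following promoters are those of some members of both sets with a peak and of a cytosolic member without one. No mitochondrial member without a peak is printed. They are RefSeq sequences of build GRCm38.p6 (mm10), run 5′ to 3′ from 250 bp before to 50 bp after a listed transcription start, and capitals mark the bases inside the peak of the adriamycin list. The first 5 belong to mitochondrial genes whose peak reaches into the window. Mrpl48, whose peak also reaches over its start, is not printed.
Mrps30 (chr13:118387203-118387502, minus strand): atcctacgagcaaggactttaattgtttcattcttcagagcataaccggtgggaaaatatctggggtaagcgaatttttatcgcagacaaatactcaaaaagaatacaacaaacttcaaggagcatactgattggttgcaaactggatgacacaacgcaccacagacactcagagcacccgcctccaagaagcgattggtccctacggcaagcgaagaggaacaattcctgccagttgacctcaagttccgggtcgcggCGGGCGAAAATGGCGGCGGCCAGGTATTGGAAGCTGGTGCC
Mrps24 (chr11:5707652-5707951, minus strand): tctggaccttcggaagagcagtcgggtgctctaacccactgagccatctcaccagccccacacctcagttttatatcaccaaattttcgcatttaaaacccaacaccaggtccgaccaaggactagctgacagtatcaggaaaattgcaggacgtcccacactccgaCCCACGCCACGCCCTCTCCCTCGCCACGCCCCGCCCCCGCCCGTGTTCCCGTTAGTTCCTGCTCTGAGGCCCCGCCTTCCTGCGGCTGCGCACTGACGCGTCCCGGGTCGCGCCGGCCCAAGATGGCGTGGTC
Mrpl36 (chr13:73330759-73331058, plus strand): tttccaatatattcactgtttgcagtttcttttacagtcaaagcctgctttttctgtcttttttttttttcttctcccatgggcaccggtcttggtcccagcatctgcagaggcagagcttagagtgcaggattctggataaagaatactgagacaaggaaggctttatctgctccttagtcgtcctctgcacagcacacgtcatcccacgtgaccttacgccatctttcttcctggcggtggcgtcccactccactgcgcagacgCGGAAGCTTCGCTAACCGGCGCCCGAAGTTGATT
Mrpl57 (chr14:57825989-57826288, plus strand): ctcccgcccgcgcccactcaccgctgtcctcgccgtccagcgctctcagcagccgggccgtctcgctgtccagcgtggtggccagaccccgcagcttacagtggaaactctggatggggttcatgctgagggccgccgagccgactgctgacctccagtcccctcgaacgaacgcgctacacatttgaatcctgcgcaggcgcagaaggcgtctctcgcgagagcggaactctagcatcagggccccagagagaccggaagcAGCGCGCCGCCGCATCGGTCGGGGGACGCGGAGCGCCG
Mrps27 (chr13:99344536-99344835, plus strand): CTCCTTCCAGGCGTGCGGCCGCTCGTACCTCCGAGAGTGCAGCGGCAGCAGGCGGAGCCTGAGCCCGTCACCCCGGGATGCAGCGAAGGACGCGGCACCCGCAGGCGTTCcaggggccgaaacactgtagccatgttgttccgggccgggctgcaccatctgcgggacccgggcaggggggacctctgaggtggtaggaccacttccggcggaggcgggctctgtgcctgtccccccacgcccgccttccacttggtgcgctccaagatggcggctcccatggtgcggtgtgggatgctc
The next 2 are cytosolic members with a peak, which covers 9 bases of the Rpl36al window and 0 of the Rpl32l window. The last is a cytosolic gene without a peak, Rpl12, with the median CpG count of its set, taken as the first such gene by symbol among Rpl and Rps symbols that end in their number.
Rpl36al (chr12:69184018-69184317, minus strand): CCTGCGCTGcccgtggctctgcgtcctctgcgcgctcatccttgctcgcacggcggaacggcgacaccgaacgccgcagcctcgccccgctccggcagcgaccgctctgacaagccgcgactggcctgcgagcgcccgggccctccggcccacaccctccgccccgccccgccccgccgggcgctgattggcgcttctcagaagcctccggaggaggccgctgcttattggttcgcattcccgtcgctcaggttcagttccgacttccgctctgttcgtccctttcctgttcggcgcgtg
Rpl32l (chr10:20208189-20208488, plus strand): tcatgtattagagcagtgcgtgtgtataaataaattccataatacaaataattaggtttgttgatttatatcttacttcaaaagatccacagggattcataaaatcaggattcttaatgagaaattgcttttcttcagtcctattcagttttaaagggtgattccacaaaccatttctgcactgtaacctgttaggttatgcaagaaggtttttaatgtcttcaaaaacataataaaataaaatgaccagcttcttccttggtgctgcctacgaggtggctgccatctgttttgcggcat
Rpl12 (chr2:32961462-32961761, plus strand): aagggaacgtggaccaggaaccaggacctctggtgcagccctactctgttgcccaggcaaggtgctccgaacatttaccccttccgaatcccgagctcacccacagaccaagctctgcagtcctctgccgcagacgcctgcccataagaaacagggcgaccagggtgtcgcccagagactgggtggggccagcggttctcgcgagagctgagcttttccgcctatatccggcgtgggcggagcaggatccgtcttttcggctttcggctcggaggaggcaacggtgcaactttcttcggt
The peak covered 41 bases in Mrps30, 133 in Mrps24, 34 in Mrpl36, 38 in Mrpl57 and 110 in Mrps27. The windows held 16, 24, 14, 36 and 27 CpG dinucleotides in these 5 genes, in that order, 42 in Rpl36al, 3 in Rpl32l and 21 in Rpl12.

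Cytosolic ribosomal protein genes rarely had a DPPA2 peak at an end, and mitochondrial ones had one at a share closer to that of genes in general. After adriamycin 3 of 90 cytosolic genes had a peak (3.33%, exact 95% binomial interval 0.693 to 9.43%) and 10 of 78 mitochondrial genes (12.8%, 6.32 to 22.3%), against 16.0% of all protein-coding genes. In untreated cells 0 of 90 cytosolic genes had one, which allows a share of up to 3.33% by a limit of 3 counts and 4.02% by the exact interval, and 2 of 78 mitochondrial genes did (2.56%, 0.312 to 8.96%), against 5.78% of all genes. The cytosolic interval lay below the share of all genes in both lists, and the mitochondrial interval held that share in both. The intervals cover counting error over genes and no spread between libraries, and a peak in bulk chromatin does not tell what fraction of cells carried it. The lists differ in length, with 16229 adriamycin and 7043 untreated peaks, and the median summit held 14 fragments in each.

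**Figure D1:**
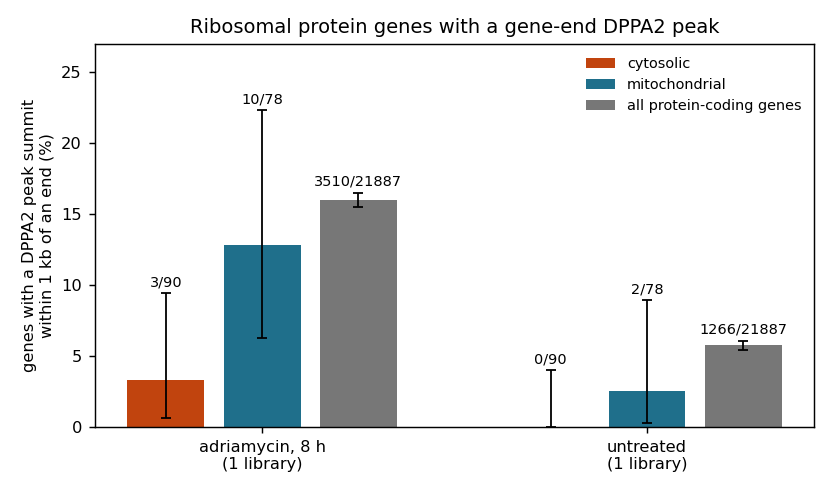
Share of genes with a DPPA2 summit within 1 kb of an end (%), for cytosolic and mitochondrial ribosomal protein genes and all protein-coding genes, in adriamycin-treated and untreated cells. Bars give the share in 1 library, whiskers the exact 95% binomial interval and labels the counts, with 3 of 90 and 10 of 78 after adriamycin and 0 of 90 and 2 of 78 in untreated cells.

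With the adriamycin list shortened to the 7043 peaks of lowest q, 0 cytosolic and 5 mitochondrial genes had a peak, against 5.73% of all genes. Stronger peaks gave the same order of the sets. With q limited to 1e-05 or less, the adriamycin list left 0 cytosolic and 5 mitochondrial genes (6.41%), against 7.12% of all genes, and the untreated list left 0 and 2, against 2.10%. The 5 mitochondrial genes were the same ones as in the shortened list, so these cuts of the list are not independent. Cytosolic genes are short, with a median length of 3170 bp, against 7690 bp for mitochondrial genes and 17169 bp for all genes. Counted within 1000 bp of any listed start, of which some genes have several, 2 of 69 cytosolic and 8 of 69 mitochondrial genes had a peak after adriamycin, against 15.8% of all genes, and 0 and 2 had one in untreated cells, against 5.91%. The 8 take in Mrps23, which was not called by its gene ends.

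The 3 cytosolic members with a peak, all after adriamycin, were Rpl7, Rpl36al and Rpl32l. Rpl7 (chromosome 1, 16101295 to 16104433) encodes a protein of the large subunit. Its peak at 16105051 to 16105339 lay outside the gene, with a summit 786 bp from the higher-coordinate end and 663 bp from Rdh10, a retinol dehydrogenase gene. The fold was 4.60, with 14 fragments at the summit (exact 95% Poisson interval 7.65 to 23.5) over a local background of 2.26. Fold is the authors' caller's ratio of summit to local background, used here to rank peaks within a list, and fragments and background were recovered from fold and p. Rpl36al (chromosome 12, 69182734 to 69184067), a paralog of the X-linked Rpl36a, had its peak at 69184309 to 69184557, where the fold was 3.90 and the summit held 10 fragments (4.80 to 18.4). Its summit was 354 bp upstream of the Rpl36al start and lay inside the neighbouring Mgat2, which encodes an enzyme of N-glycan synthesis, at 263 bp from its end. Rpl32l (chromosome 10, 20208439 to 20209030), an Rpl32-like gene, had a fold of 4.14 and 10 fragments (4.80 to 18.4) at 20208625 to 20208832, inside the gene and 314 bp after its start. All 3 folds were below the median of the adriamycin list, 5.10.

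Rpl32l was thus the one cytosolic member whose own end was the nearest to its peak, and its promoter, printed above, is poor in CpG. Rpl32l and its peak lie within another protein-coding gene, Map7 (20148920 to 20281590), whose nearest end was 59833 bp from the summit. With each peak given to the gene of the nearest end, 1 of 90 cytosolic genes (1.11%) and 7 of 78 mitochondrial genes (8.97%) kept a peak after adriamycin, against 14.7% of all genes. In untreated cells 0 and 1 did, against 5.34%. The symbol rule also takes in genes that are not standard ribosomal proteins, such as Rps19bp1, whose product binds RPS19, and Rps23rg1, a retrogene of Rps23. Neither had a peak, with nearest adriamycin summits 39667 and 21929 bp away. The same holds in the mitochondrial set for Mrps36, now known as a subunit of the 2-oxoglutarate dehydrogenase complex, at 5216 bp. Without Rps19bp1 and 7 genes whose symbols end in l, or in l and a digit, such as Rpl36al and Rpl32l, 1 of 82 cytosolic genes, Rpl7, had a peak after adriamycin. Many processed copies of cytosolic ribosomal protein genes lie elsewhere in the genome, 309 in the annotation used. How reads that match several copies were treated is not given in the sources used here, and its part in the low count was not tested.

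Mrps30 and Mrpl40 were the 2 members with a peak in both lists, 1.19% of the 168, against 4.51% of all genes. They made up 2 of the 13 members called after adriamycin and 2 of the 2 called in untreated cells, and for all genes the shared part was 28.1% of the adriamycin and 78.0% of the untreated calls. Mrps30 encodes a protein that carries a small subunit name and sits in the large subunit of the mammalian mitochondrial ribosome (chromosome 13, 118380110 to 118387252). Its summit lay inside the gene, 283 bp downstream of the start in the adriamycin list and 207 bp in the untreated list. It had 13 fragments (6.92 to 22.2) in the adriamycin library and 20 (12.2 to 30.9) in the untreated library, over local backgrounds of 1.30 and 1.76. The folds were 6.09 and 7.61. The intervals of the fragment counts overlap, and the folds are not scaled between libraries, so no change is read from them. The untreated peak, 118386846 to 118387222, lay wholly within the adriamycin peak, 118386634 to 118387243.

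Mrpl40 encodes a large subunit protein (chromosome 16, 18872018 to 18876637). Its peak had 25 fragments (16.2 to 36.9) in the adriamycin library and 18 (10.7 to 28.4) in the untreated library, with folds of 7.74 and 4.85. The summits lay 756 and 961 bp upstream of its start, and the peaks shared 366 bp. Both summits were inside the neighbouring gene Hira, which encodes a histone chaperone, at 643 and 848 bp from its end. This peak cannot be assigned to either gene from its position.

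The other 8 mitochondrial members had a peak after adriamycin and none in untreated cells. Over both sets 11 of 168 members (6.55%) had this pattern, against 11.5% of all genes, and 0 members had the opposite one, against 1.27%. A gene without a peak in the shorter untreated list may still have had signal below the caller's threshold. Mrpl15 (chromosome 1, 4773198 to 4785750), a large subunit gene, had the highest fold of any member, 8.05, at 4785387 to 4785834. It had 27 fragments (17.8 to 39.3) over a local background of 2.48, and 8.07% of the adriamycin list had a higher fold. The nearest untreated summit lay 194329 bp from that summit. Mrpl28, also of the large subunit (chromosome 17, 26123503 to 26126613), had a fold of 5.90 and 20 fragments (12.2 to 30.9). Its summit was 100 bp from the far end of the gene and 3010 bp after the start, so that this peak lay at the 3′ end.

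Mrpl36 (chromosome 13, 73328503 to 73332178) encodes a small protein of the large subunit and had a fold of 5.40 and 14 fragments (7.65 to 23.5) at 203 bp after a listed start. The remaining 5 had folds between 4.40 and 4.80 and 10 to 14 fragments, below the median fold of the list. They were Mrpl48 and Mrpl57 of the large subunit and Mrps24, Mrps27 and Mrps35 of the small subunit. Mrps24 (chromosome 11, 5703982 to 5707701) had a fold of 4.55 at 269 bp after its start, with its peak over the start itself, as the capitals in its promoter show. Mrps35 (chromosome 6, 147042728 to 147070906) had a fold of 4.40 at 243 bp inside its lower-coordinate end.

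Neighbouring genes shared several of these peaks. Mrps27 (chromosome 13, 99344767 to 99415562), a gene for an RNA-binding ribosomal protein, had a fold of 4.62. Its summit was 255 bp outside the gene and lay inside Ptcd2, which encodes another mitochondrial RNA-binding protein, at 166 bp from its end. Mrpl57 (chromosome 14, 57826228 to 57829087) had a fold of 4.64 with a summit 125 bp from its own end and 62 bp from that of Ska3, a kinetochore gene. Mrpl48 (chromosome 7, 100545779 to 100608301) had a fold of 4.80 at 344 bp from its end and 382 bp from that of Rab6a, a Golgi GTPase gene. That summit lay inside both genes, which overlap. Among the 13 members called after adriamycin, 6 had the end of another protein-coding gene within 1000 bp of the summit, and for 5 of them that end was the nearer. Ends of other genes lay within 1000 bp of an end for 35.6% of cytosolic, 56.4% of mitochondrial and 24.8% of all protein-coding genes. Cytosolic genes with such a neighbour had a peak after adriamycin in 3.13% of cases and those without in 3.45%. For mitochondrial genes these shares were 13.6% and 11.8%, and for all genes 979 of 5426 with a neighbour had a peak and 15.4% without.

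**Figure D2:**
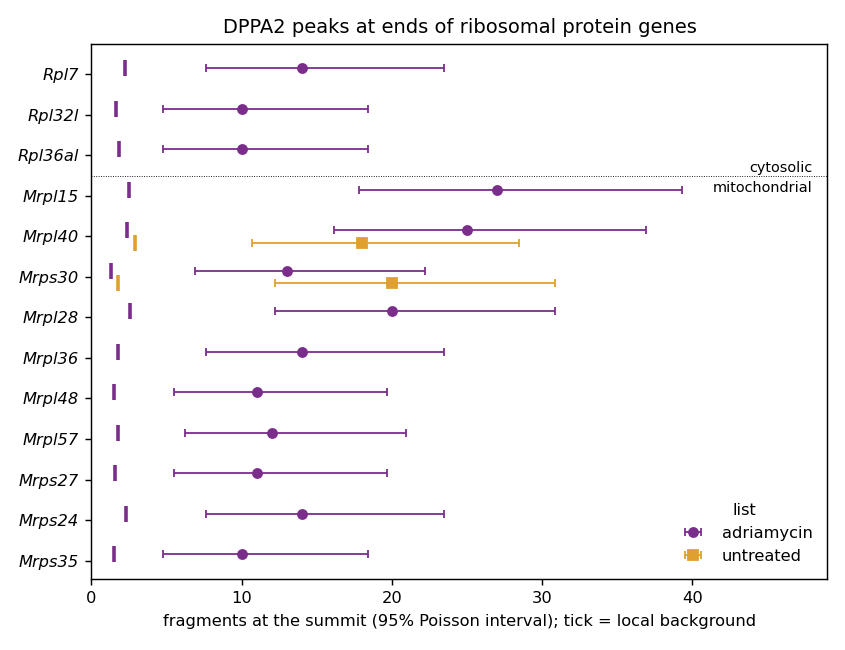
Fragments at the summit of each peak within 1 kb of an end of a ribosomal protein gene (x axis, whiskers are exact 95% Poisson intervals), for adriamycin (circles) and untreated (squares), with ticks at the local background. Peaks after adriamycin ran from 10 to 27 fragments over backgrounds of 1.30 to 2.56, and the 2 untreated peaks, at Mrpl40 and Mrps30, had 18 and 20.

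Beyond 1000 bp the cytosolic share stayed below that of all genes out to 10000 bp in both lists. In the untreated list the mitochondrial share did so as well. Within 10000 bp of an end an adriamycin summit lay at 16 of 90 cytosolic genes (17.8%, 10.5 to 27.3%) and 28 of 78 mitochondrial genes (35.9%, 25.3 to 47.6%), against 34.2% of all genes. For the untreated list the shares within 10000 bp were 5.56%, 7.69% and 13.9%. Within 5000 bp of an untreated summit they were 5.56% (1.83 to 12.5%), 2.56% (0.312 to 8.96%) and 9.90%. There the cytosolic share was above the mitochondrial one, and the mitochondrial interval lay below the share of all genes. Within 100000 bp of an adriamycin summit the shares were 80.0%, 83.3% and 81.4%. The median distance to the nearest adriamycin summit was 34190 bp for cytosolic, 18827 bp for mitochondrial and 24686 bp for all genes. In untreated cells it was 131855, 110648 and 93179 bp. Inside the genes, more than 1000 bp from both ends, 0 cytosolic and 5 mitochondrial genes (Mrpl15, Mrpl38, Mrpl47, Mrps23 and Mrps28) had an adriamycin summit, against 17.9% of all genes, and 0 of either set had an untreated one, against 8.16%. This count depends on gene length.

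Around the limit of 1000 bp, the outermost members counted were Mrpl36 at 966 bp and Rpl7 at 786 bp after adriamycin and Mrpl40 at 961 bp in untreated cells. Just outside lay Mrps7 at 1507 bp, Rpl37 at 1911 bp and Rpl37rt at 1947 bp after adriamycin, and Rpl37rt at 1531 bp and Rpl37 at 1810 bp in untreated cells. Rpl37, a large subunit gene (chromosome 15, 5116613 to 5119140), and Rpl37rt, named as its retrotransposed copy, thus had a summit of each list at a like distance. The folds were 4.51 (adriamycin) and 4.78 (untreated) near Rpl37 and 3.40 (adriamycin) and 3.66 (untreated) near Rpl37rt. A window of 2500 bp would bring the cytosolic count to 8 (8.89%) after adriamycin, against 20.6% of all genes, and 2 (2.22%) in untreated cells, against 7.57%.

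**Figure D3:**
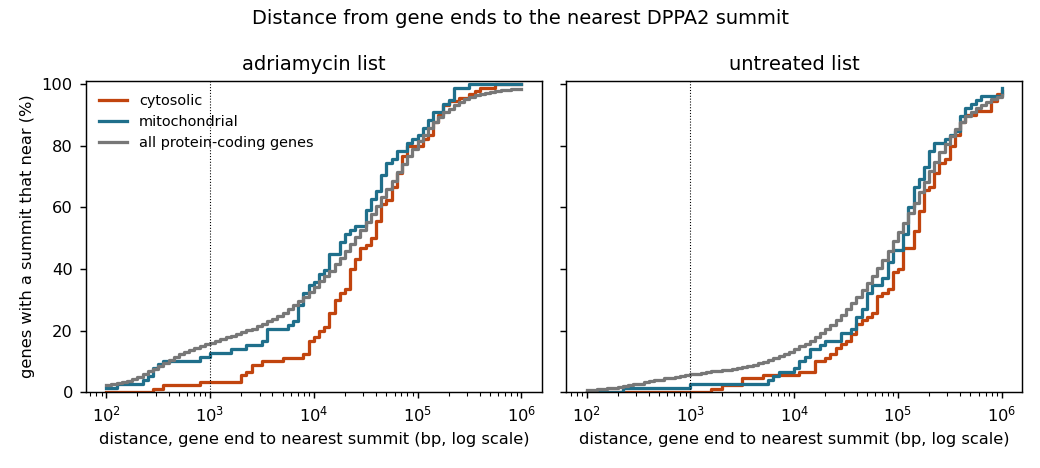
Cumulative share of genes (%) whose end lies within a given distance (bp, log scale) of the nearest DPPA2 summit, for cytosolic, mitochondrial and all protein-coding genes, for adriamycin (left) and untreated (right). The dotted line marks 1000 bp. The cytosolic curve of the adriamycin list stands at 17.8% at 10000 bp, against 34.2% for all genes, and the curves of both sets and all genes lie at 80.0%, 83.3% and 81.4% at 100000 bp.

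Promoter CpG counts were set beside the calls, and whether CpG content had a part in the low cytosolic count was not tested. A call could be at either gene end, while CpG was counted in a window at a listed start. Promoter sequence was listed for 69 genes of each set. The median window held 21 CpG in the cytosolic and 21 in the mitochondrial set, against 13 for all protein-coding genes, and GC content was 57.0%, 58.3% and 56.3%. Over all genes the share with a peak after adriamycin went up with CpG count, 4.30% at 0 to 5 CpG, 254 of 2109 genes at 6 to 10, 15.9% at 11 to 20, 20.9% at 21 to 30 and 38.6% at 31 to 65. In the range of 11 to 30 CpG, which holds most members, 0 of 52 cytosolic genes had a peak after adriamycin, which allows up to 5.77% by the limit of 3 counts and 6.85% by the exact interval, and 7 of 57 mitochondrial genes did (12.3%), against 18.3% of all genes in that range. The 7 include Mrpl28, with 18 CpG, whose peak lay at the 3′ end. Rpl7 had no listed promoter and is not among these genes. In untreated cells the counts in that range were 0 and 2 (3.51%), against 6.55%. At 31 to 65 CpG the sets were alike after adriamycin, with 1 of 8 cytosolic (12.5%) and 1 of 9 mitochondrial genes (11.1%), against 38.6% of all genes. At 6 to 10 CpG 0 of 5 and 0 of 3 had a peak. At 0 to 5 CpG 1 of 4 cytosolic genes did, against 4.30% of all genes, and 0 mitochondrial promoters fell in that class. The 2 cytosolic genes with a listed promoter and a peak were Rpl32l with 3 CpG and Rpl36al with 42, in a set that ranged between 2 and 42. Mitochondrial genes with a peak had a median of 24 CpG and those without 21.

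**Figure D4:**
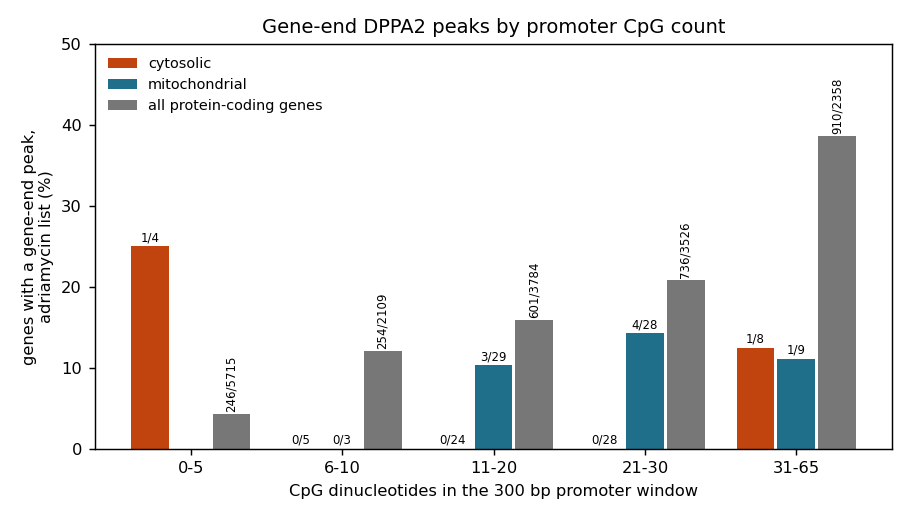
Share of genes with a summit near an end after adriamycin (%) by number of CpG dinucleotides in the 300 bp promoter window, for cytosolic, mitochondrial and all protein-coding genes, with counts above the bars. All genes run from 4.30% to 38.6% across the classes, while cytosolic genes have 0 of 24 and 0 of 28 in the classes of 11 to 20 and 21 to 30 CpG. In the class of 31 to 65 CpG the cytosolic set has 1 of 8 and the mitochondrial set 1 of 9.

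Promoter motifs were counted by their letters on both strands. The YY1 core AAGATGGCG was in 4 of 69 cytosolic (5.80%) and 8 of 69 mitochondrial promoters (11.6%), against 1.92% of all promoters. Among the 8 mitochondrial genes with a gene-end peak after adriamycin and a listed promoter it was in 3, Mrpl36, Mrps24 and Mrps27. Among the 61 without a gene-end peak it was in 5. The 8 include Mrpl28, with its peak at the 3′ end, and the 61 include Mrps23, with a summit near a listed start. In the printed windows these letters lay inside the peak in Mrps24 and outside it in Mrpl36 and Mrps27. Over all genes the YY1 core was in 2.37% of promoters of genes with a gene-end peak and 1.83% of those without. The ETS motif CCGGAAGT was in 15.9% of the promoters of each set, against 5.28% of all. The NRF1 core GCATGCGC was in 2.90% of cytosolic, 11.6% of mitochondrial and 3.61% of all promoters. The E-box CACGTG was in 7.25% of each set and 7.91% of all, TATAAA in 13.0%, 5.80% and 13.3%, and CGCG in 68.1%, 89.9% and 49.5%. In the same 8 and 61 mitochondrial genes, ETS was in 1 and 10, NRF1 in 0 and 8, E-box in 1 and 4, TATAAA in 1 and 3 and CGCG in 8 and 54. Over all genes with and without a gene-end peak, the shares were 5.79% and 5.18% for ETS and 4.91% and 3.36% for NRF1. They were 9.65% and 7.59% for E-box, 6.37% and 14.6% for TATAAA and 75.7% and 44.6% for CGCG. No motif contains another, although adjoining matches can share bases. A match is a run of letters and was not tested as a binding site.

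Other genes of the 2 translation systems were counted from lists of named genes in the same way, and are to be read against the same 16.0% (adriamycin) and 5.78% (untreated). Of 5 mitochondrial ribosomal genes with other symbols, 2 had a peak after adriamycin and 0 in untreated cells. They were Dap3, which encodes a small subunit GTP-binding protein, with a fold of 5.04, and Chchd1, with 4.30. Of 28 mitochondrial translation factors and aminoacyl-tRNA synthetases, 7 (25.0%, 10.7 to 44.9%) had a peak after adriamycin and 2 (7.14%) in untreated cells. Lars2, the mitochondrial leucyl-tRNA synthetase gene, had a peak in both lists, with folds of 30.1 (adriamycin) and 30.3 (untreated), at a local background 5.00 and 5.17 times the lowest of each list. It is counted in the 7 and in the 2. Its summit held 184 fragments (158 to 213) in the adriamycin and 216 (188 to 247) in the untreated library, at fold rank 5 in each list. Whether this signal came from DPPA2 was not tested. Of 41 cytosolic translation factors 4 (9.76%, 2.72 to 23.1%) and 1 had one, with no gene in both lists, and of 43 ribosome biogenesis genes 4 (9.30%, 2.59 to 22.1%) and 3 (6.98%) did. Rrs1, a biogenesis factor of the large subunit, had one in both, with 46 fragments (33.7 to 61.4) in the adriamycin library and 35 (24.4 to 48.7) in the untreated library. Its local background was also high, at 5.00 (adriamycin) and 3.96 (untreated) times the lowest of each list. Of 11 genes left out by the symbol rule, which encode S6 kinases and the like, 4 had a peak after adriamycin and 1 in untreated cells. That one, Rps6kb1, the gene of p70 S6 kinase, had folds of 6.96 (adriamycin) and 5.25 (untreated).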

How the data were processed

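ChIP-seq peak lists of 1 adriamycin and 1 untreated library were used, grouped by the sample labels. Per the submitters' processing notes the build was mm10 and the tools were MACS3 3.0.0b1, Bowtie2 2.5.1, deepTools 3.5.1, FastQC 0.12.1 and SAMtools. The sources used here give no calling command, filter or input control. Each library has its own list. The deposited fold is the authors' caller's ratio of summit to local background, the deposited −log10 p and −log10 q belong to the same summit, and the deposited score follows from −log10 q.

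Chromosomes 1 to 19, X and Y were kept, with 16229 adriamycin and 7043 untreated peaks. The lists give no read totals. Fragments at a summit were recovered as the whole number that yields both fold and −log10 p, with a pseudocount of 1, a Poisson upper tail and a tolerance of 0.001. This succeeded for 99.9% of peaks in each list, and the median summit held 14 fragments in both. Tested on simulated data, the method returned the right number for 97.2% of 1986 peaks. Gene positions and promoter windows came from RefSeq tables of GRCm38.p6. Starts were listed for 138 of the 168 members. A gene was called where a summit lay within 1000 bp of either end. Intervals are exact Clopper-Pearson or Poisson 95% intervals, or Newcombe 95% intervals for a difference of shares, and cover counting error only. With 1 library per group no test was made. The members and lists were chosen with earlier results of these data known. Genes named are those with a peak in both lists or in untreated cells, the 10 of each set with the highest adriamycin fold, members near the 1000 bp limit, symbols that are no standard ribosomal protein, and members whose peak is nearer to another gene. Other genes were named after their values were seen, and some results on them are not reported here. Python 3.11.15, numpy 2.4.6, pandas 2.3.3, scipy 1.17.1 and matplotlib 3.10.9 were used.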

Additional observations from a re-analysis of the deposited data

How the results depend on the processing

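The cytosolic share stayed below the mitochondrial one after adriamycin under all 11 alternatives tried, with a difference of -3.85 to -11.6 percentage points (-9.49 as reported, 95% Newcombe interval -18.9 to -1.20). The interval included 0 within 2500 bp (-17.0 to 3.48), by overlap (-10.7 to 0.97) and by listed start (-18.6 to 0.32). These intervals cover counting error over genes in 1 library per group. The contrast was taken up with its counts known, so they are no test of the sets. In untreated cells the cytosolic share was below or, where the peak had to overlap the gene end, equal (0 points). Within 5000 bp, which was not among the alternatives, the untreated cytosolic share was above, at 5.56% against 2.56%, with 9.90% of all genes. Counts moved more. Cytosolic genes with a peak after adriamycin were 3 as reported, and 0 at a q of at most 1e-05, at a fold of at least 5, with lists of equal length and where the peak had to overlap the gene end. They were 1 with each peak given to the nearest end, and 1 without paralogs and Rps19bp1, also without retrogenes and -ps symbols (an alternative chosen after seeing the data). Within 2500 bp they were 8 (20.6% of all genes), and in untreated cells 2 (7.57%) where 0 were reported. Mitochondrial genes after adriamycin were 10 as reported, 5 with q, fold or equal length and 3 by overlap, against 7.12%, 6.94%, 5.73% and 4.14% of all genes. The q, fold and equal-length settings kept the same 5 genes, so they are not independent of each other. Leaving out peaks of high local background changed no member call. In untreated cells mitochondrial genes were 2 as reported, 1 at a fold of at least 5, within 500 bp and by nearest end, and 0 by overlap, against 2.14%, 4.08%, 5.34% and 1.11% of all genes. Members in both lists had these same counts, with 4 at 2500 bp. The share of all genes in both lists was counted only for the main setting, at 4.51%. The both-list counts at other settings thus have no share to be read against. No paired analysis was possible because each group had 1 library and no fit was made. Peaks of 10 to 27 fragments and sets of 90 and 78 genes limit what these counts can show.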

Other observations

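Pseudogenes with ribosomal protein symbols carried peaks as well. Of 309 annotated cytosolic ones, 20 (6.47%) had a summit within 1000 bp of an end after adriamycin and 8 (2.59%) in untreated cells, against 4.30% and 1.82% of all 10429 pseudogenes. The highest folds of the adriamycin list among them were at copies of Rps2, a small subunit gene. Of 12 such copies 5 had a peak after adriamycin and 2 in untreated cells. On chromosome X, Rps2-ps13 (52898559 to 52899511) had folds of 12.7 (adriamycin) and 5.93 (untreated), with 29 and 12 fragments. Rps2-ps10 had folds of 8.87 and 5.59, with 32 and 18 fragments. The parent gene Rps2 had no peak, and its nearest adriamycin summit lay 12842 bp from an end. These copies were singled out after their values were seen, copies share sequence, and whether reads of one were placed at another was not tested.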
